A study of Mus musculus with 7 samples.

Results

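The 8 constant genes of the mouse immunoglobulin heavy chain, Ighm, Ighd, Ighg3, Ighg1, Ighg2b, Ighg2c, Ighe and Igha, were followed across 7 bulk RNA-seq libraries of B-lineage cells. They were taken by gene symbol from a table of 48795 genes, and all 8 were found and tested. The libraries came from spleens of female wild type C57BL/6 mice aged 8 to 12 weeks, 10 days after sheep red blood cells, a T cell-dependent antigen, had been injected into a vein. Memory B cells (MBCs, 3 libraries) were sorted as B220+, CD138-negative, IgD-negative, CD38+ and CD273+, and plasma cells (PCs, 4 libraries) as B220-low, CD138+ and IgD-. Every mouse was immunized, both sorts removed cells with surface IgD, and no naive or unimmunized group was analysed here. The labels do not say how many mice went into a library, so each p-value measures the spread between these libraries, which may in part be technical. Where a gene is given library by library, the values follow the order of the replicate numbers, 1 to 3 for MBCs and 1 to 4 for PCs. The question put to the data was which isotypes the heavy chain transcripts of MBCs and PCs belong to, and in what amounts.

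A heavy chain transcript joins a rearranged variable segment to a constant gene, and the constant gene sets the isotype of the antibody. Naive B cells make IgM and IgD together by alternative processing of a long transcript that runs through Ighm and Ighd. After activation, class switch recombination deletes the DNA between switch regions and moves the rearranged variable segment next to a downstream gene: IgG from the Ighg genes, IgE from Ighe or IgA from Igha. Each constant gene gives a membrane form, the B cell receptor of a memory cell, and a secreted form, the antibody of a plasma cell, and plasma cells devote much of their RNA to antibody chains. The abundances were summed per gene, so the membrane form, the secreted form and any germline transcripts of an unswitched gene are joined in each value.

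On GRCm38 the 8 genes lie on the minus strand of chromosome 12, and they are named here in the order in which they follow the variable genes. Ighm spans chr12:113418558-113422730 and Ighd spans chr12:113406604-113416324. The IgG genes are Ighg3 at chr12:113356224-113361232, Ighg1 at chr12:113325240-113330523, Ighg2b at chr12:113302965-113307933 and Ighg2c at chr12:113285325-113288932. Ighe at chr12:113269260-113273248 and Igha at chr12:113254830-113260236 are the farthest downstream. In GENCODE release M21 each has 2 transcripts, which share their first exons and differ at the 3′ end, and no other annotated gene overlaps any of the 8 on either strand.

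The IgG genes are close relatives, so their sequences are shown to let a reader judge whether reads of one could be counted for another. The first coding exon, CH1, has 291 bases in all 4, and 203 of these positions (69.8%) hold the same base in all 4. In its first 90 bases, printed 5′ to 3′ on the coding strand from the GENCODE transcripts (GRCm38), the capitals mark the 29 positions at which the 4 genes do not all have the same base.
Ighg3, chr12:113361143-113361232: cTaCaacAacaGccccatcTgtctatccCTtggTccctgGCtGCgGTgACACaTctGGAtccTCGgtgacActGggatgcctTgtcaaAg
Ighg1, chr12:113330434-113330523: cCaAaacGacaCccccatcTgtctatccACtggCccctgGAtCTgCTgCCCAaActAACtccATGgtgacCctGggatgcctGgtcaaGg
Ighg2b, chr12:113307844-113307933: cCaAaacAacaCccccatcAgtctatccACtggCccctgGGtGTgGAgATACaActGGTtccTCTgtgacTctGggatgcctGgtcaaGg
Ighg2c, chr12:113288843-113288932: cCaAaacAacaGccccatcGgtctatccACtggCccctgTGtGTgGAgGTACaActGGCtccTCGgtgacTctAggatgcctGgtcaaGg

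Over the whole CH1 exon the closest pair was Ighg1 and Ighg2b, with 88.3% identical bases, and the most distant pair was Ighg3 and Ighg2c, with 78.4%. Across all annotated transcripts, 5.49% of the 50-base windows of Ighg2c, 4.15% of those of Ighg2b, 1.58% of those of Ighg3 and 0.393% of those of Ighg1 were found without a mismatch in another gene, and that gene was always another IgG gene. No window of 100 bases of any of the 8 genes was shared, and Ighm, Ighd, Ighe and Igha shared none of 50 bases. The read length is not given in the sources used here, so values of single IgG genes carry some uncertainty from how shared reads were divided.

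The hinge exons, which link the antigen-binding arms of IgG to its Fc part, differ between the subclasses in length as well as in sequence, and are printed whole with the in-frame cysteine codons in capitals. Hinge cysteines form the disulfide bridges between the heavy chains. Ighg1 and Ighg2b have 4 such codons, Ighg2c has 3 and Ighg3 has 1.
Ighg3, chr12:113360529-113360576: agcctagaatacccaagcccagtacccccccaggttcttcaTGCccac
Ighg1, chr12:113329844-113329882: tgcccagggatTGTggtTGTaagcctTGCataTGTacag
Ighg2b, chr12:113307261-113307326: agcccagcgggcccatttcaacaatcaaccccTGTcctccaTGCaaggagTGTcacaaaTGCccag
Ighg2c, chr12:113288263-113288325: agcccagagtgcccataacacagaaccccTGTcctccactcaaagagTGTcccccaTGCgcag

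The library labelled MBC replicate 3 was more like the PC libraries than the other MBC libraries were. Across the 11573 tested genes, its Pearson's r with PCs was 0.70 to 0.777, against 0.537 to 0.564 for MBC replicates 1 and 2. Within MBCs r did not set it apart: it was 0.681 to 0.687 with replicates 1 and 2, which had 0.675 with each other. MBC replicate 3 also had more genes above 0 (18061 against 12983 and 11527). Its estimated reads per TPM and kb were 11.5, against 6.28 and 6.99. It is also the only MBC library with the less frequent of 2 prefixes in the sample titles, which it shares, with a whole title code, with PC replicate 4 (r = 0.777), so within MBCs the library and the prefix cannot be told apart. It was low in Cd38 (6.77 against 130.3 and 185.7 scaled TPM in MBC replicates 1 and 2) and in Pdcd1lg2, the gene of CD273 (2.59 against 43.3 and 24.4), both of which were sort markers. The summed level of 8 germinal center B cell markers was 686 scaled TPM there and 227 and 274 in the other MBC libraries, and that of 5 proliferation markers was 703 against 104 and 116. Of other cell types, 8 naive follicular B cell markers summed to 261 to 979 scaled TPM in MBCs and 62.2 to 127 in PCs, 5 marginal zone B cell markers to 93.8 to 273 and 20.6 to 33.4, 8 T cell markers to 0 to 24.1 and 70.9 to 95.5, 7 myeloid markers to 5.73 to 40.2 and 23.2 to 31.02, and 5 erythroid markers to 3.41, 3214 and 50.8 across MBCs and 0.32 to 102 in PCs. Of the 5 marginal zone markers, 2 were called lower in PCs and 1, Cd9, was called higher (0 to 1.61 scaled TPM in MBCs and 8.80 to 14.2 in PCs). Cr2, which is also in the naive follicular list, held 63.8 to 148 of the marginal zone sum in MBCs. Of the T cell sum in PCs, Cd28, which plasma cells are known to express, held 41.9 to 55.7 scaled TPM. Cd3e, at 3.86 to 14.2, and Trac, at 2.501 to 23.1, were also called higher in PCs, Cd4 reached 6.42, and Cd3d, Cd3g and Cd8a were at most 2.42. Lck went the other way, at 14.3, 0 and 23.0 scaled TPM across MBCs and 0.629 to 5.03 in PCs, and was not called (-0.85 on the log2 scale). In MBC replicates 1 and 3 it held all or most of the T cell sum. The part of these differences in the results that follow was not tested, and many values below are printed a second time with MBC replicate 3 left out. In bulk RNA, fewer cells of a type and less RNA per cell cannot be told apart.

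Heavy chain constant transcripts were far more abundant in PCs. The 8 genes together took 0.72%, 0.73% and 0.337% of the TPM (transcript abundance per length, scaled to a fixed total) of the MBC libraries, and 9.08%, 9.62%, 9.07% and 8.17% of that of the PC libraries. Of the 8 genes, 6 were called higher in PCs and 0 lower, where 6.41% of all tested genes were called higher and 2.14% lower. At an unadjusted p under 0.05 (limma) the counts were 7 and 0, where 1770 of all 11573 tested genes were higher and 1033 lower. A call needed an adjusted p under 0.05 and a log2 fold change of at least 1 in either direction, in a limma fit over all genes on log2(scaled TPM + 1), in which TPM had been rescaled by a median ratio to other genes. Igha was not called (adjusted p = 0.061, limma), a call that turned on the libraries and on blocking by replicate number or title code, and neither was Ighd. Without the library labelled MBC replicate 3, Igha was called too, which made 7 of 8 higher and 0 lower (limma, 7 and 1 at an unadjusted p under 0.05), with 13.8% of all genes then called higher and 7.94% lower. For 7 of the 8 genes every PC library lay above every MBC library in scaled TPM, as did 13.0% of all genes, while 8.68% lay below. The same 7 were above in TPM as deposited, where 4.88% of all genes were above and 34.3% below.

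**Figure D1:**
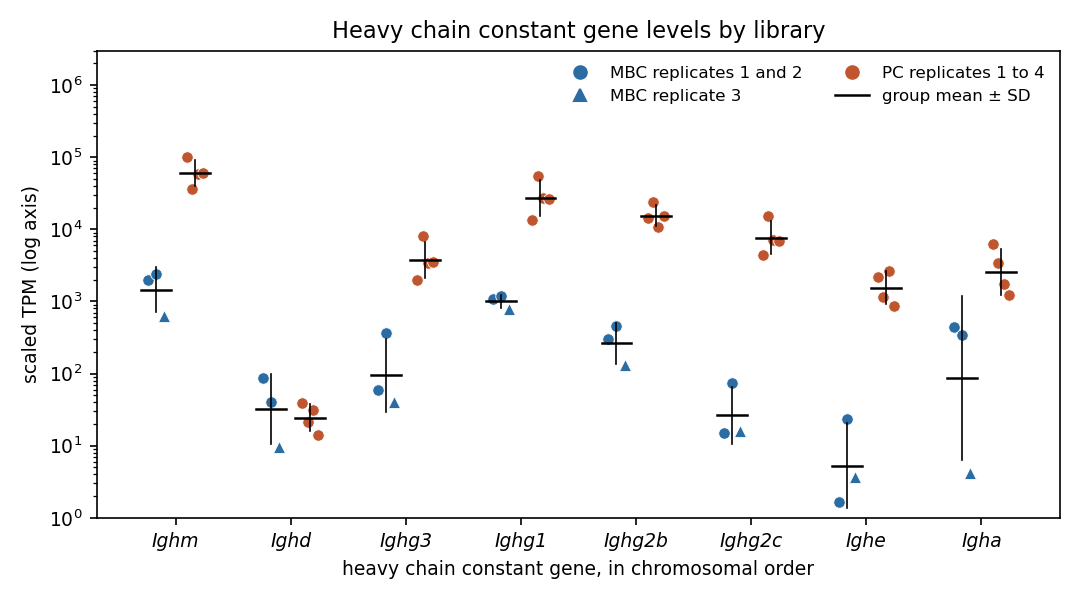
Scaled TPM of the 8 heavy chain constant genes (log axis) in each library, with MBC replicates in blue (replicate 3 as a triangle) and PC replicates in orange. Bars give the mean and SD of the log10 values in each group. The 4 PC libraries lie above the 3 MBC libraries for every gene except Ighd, whose groups overlap.

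Ighm, the gene of IgM, was the constant gene with the highest TPM in 5 of 7 libraries. It stood at 3575, 3591 and 1311 TPM across MBCs and at 63468, 24356, 47497 and 43076 TPM in the PC libraries. Every PC library was thus above every MBC library, and the lowest PC library held 6.78 times the TPM of the highest MBC library. The log2 fold change was 5.36 (SE 0.60, limma, adjusted p = 0.00047), and 4.77 without the library labelled MBC replicate 3. Among all genes of a library, Ighm ranked 12th by TPM in MBC replicates 1 and 2, 71st in MBC replicate 3, and 4th or 5th in the PC libraries.

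Ighg1 encodes IgG1, an IgG that interleukin-4 is known to favor in the mouse. Its TPM was 1972, 1769 and 1637 in the MBC libraries and 8659, 36799, 22281 and 18628 in the PC libraries. It was the steadiest member among MBCs, where its highest and lowest TPM differed by 1.2 times, and it exceeded Ighm in PC replicate 2 and in the library labelled MBC replicate 3. PCs exceeded MBCs by 4.74 on the log2 scale (SE 0.51, limma, adjusted p = 0.0004), and by 4.57 without the library labelled MBC replicate 3.

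Ighg2b encodes IgG2b, which transforming growth factor beta is known to favor. It held 550.2, 681 and 267 TPM in the MBC libraries and 9186, 16162, 8834 and 10979 TPM in the PC libraries. No library of one group entered the range of the other, and the spread within PCs, 1.83-fold from lowest to highest, was the narrowest of the 8 genes. The rise in PCs was 5.88 on the log2 scale (SE 0.49, limma, adjusted p = 0.00011), and 5.38 without the library labelled MBC replicate 3.

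Ighg2c encodes IgG2c, the interferon gamma-favored subclass that C57BL/6 mice carry in place of the IgG2a of other strains. Its TPM was 27.2, 111 and 33.3 in the MBC libraries and 2768, 10421, 5796 and 5027 in the PC libraries. These values give it the widest gap between the groups, the lowest PC library holding 24.8 times the TPM of the highest MBC library. The rise in PCs, 8.11 on the log2 scale (SE 0.61, limma, adjusted p = 5.8e-05), was also the largest of the 8 in this fit. It was 7.77 without the library labelled MBC replicate 3. Ighe was close behind, at 7.84 (SE 0.71), and the order of these genes was not stable. Ighe was above Ighg2c under quantile normalization (7.15 against 7.12) and with a block for the title code (7.97 against 7.77). The same held without PC replicate 2 and within the more frequent title prefix.

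Ighg3 encodes IgG3, a subclass often made against carbohydrate antigens. It stood at 108, 534 and 81.8 TPM across MBCs and at 1263, 5406, 2771 and 2537 TPM in the PC libraries. MBC replicate 2 and PC replicate 2 were the high libraries of their groups, and the groups did not overlap. The rise in PCs was 5.27 on the log2 scale (SE 0.74, limma, adjusted p = 0.0019), and 4.66 without the library labelled MBC replicate 3.

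Ighe encodes IgE, the scarcest antibody class in serum. It was the lowest of the 8 in all 3 MBC libraries, at 3.04, 34.8 and 7.66 TPM, of which the first rests on an estimated 21.9 reads. In the PC libraries it reached 1381, 788, 2129 and 616 TPM. The log2 fold change was 7.84 (SE 0.71, limma, adjusted p = 0.00016), or 7.58 without the library labelled MBC replicate 3, and the lowest PC library held 17.7 times the TPM of the highest MBC library.

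Igha encodes IgA, the antibody of mucosal surfaces. Its TPM was 803, 516 and 8.56 in the MBC libraries and 4019, 2283, 1404 and 872 in the PC libraries. Igha in the library labelled MBC replicate 3 was 93.9 times below MBC replicate 1, the widest spread of any of the 8 genes within a group, although its 8.56 TPM correspond to an estimated 86.9 reads. The log2 fold change was 4.81 (SE 1.37, limma, adjusted p = 0.061) with all libraries, and 2.72 (SE 0.63, limma, adjusted p = 0.0216) without that library. With a block for the replicate number or for the title code it was called as well (limma, adjusted p = 0.0116 and 0.0189). On the deposited scale the groups met closely, the lowest PC library being 1.09 times the highest MBC library.

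Ighd, the gene of IgD, was the exception. Its TPM was 156, 59.3 and 19.6 in the MBC libraries and 24.6, 14.2, 25.1 and 10.2 in the PC libraries. In the library labelled MBC replicate 3 it lay inside the PC range, so the groups overlapped. The log2 fold change was -0.39 (SE 0.68, limma, adjusted p = 0.768). It was -1.22 (SE 0.50, limma, adjusted p = 0.119) without the library labelled MBC replicate 3 and 0.30 without MBC replicate 1, so neither a direction nor its absence was shown. Both sorts selected cells without surface IgD protein, so this gene was bound up with the sort in both groups.

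**Figure D2:**
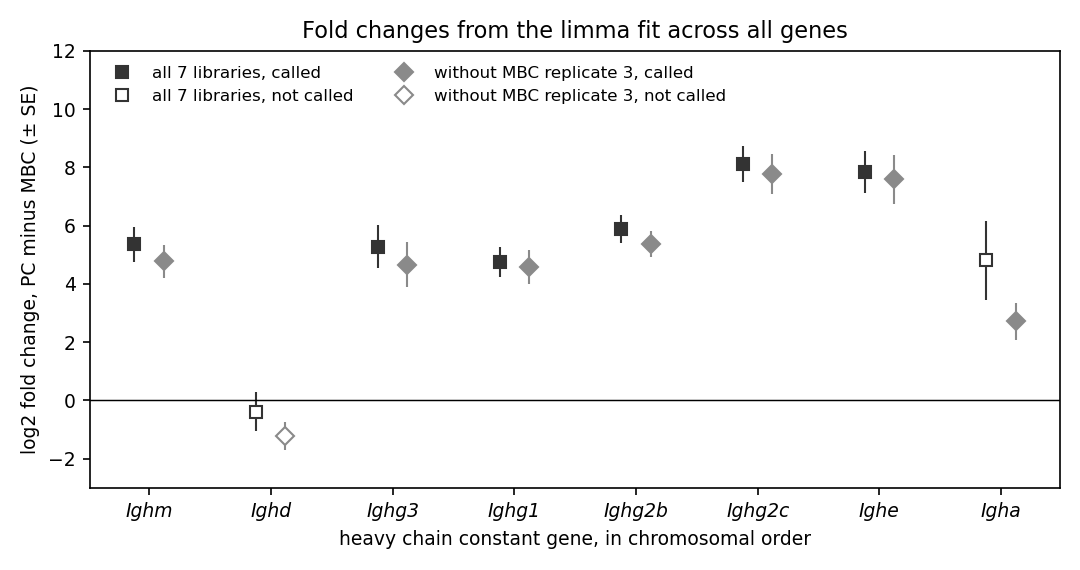
Log2 fold change (PC minus MBC, ± SE, limma fit over all genes) of the 8 genes, with all 7 libraries (squares) and without the library labelled MBC replicate 3 (diamonds), and with open symbols where a gene was not called. Ighg2c and Ighe lie highest, and Igha moves from 4.81 to 2.72 when that library is left out.

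The MBC level was also read as a percentage of the mean PC level, in scaled TPM, beside that of plasma cell markers. It was 1.00% to 3.804% for Ighm, 2.62% to 3.92% for Ighg1 and 0.804% to 2.84% for Ighg2b. Ighg2c stood at 0.176%, 0.884% and 0.191% and Ighe at 0.0978%, 1.37% and 0.219%, so that MBC replicate 2 was the high library for both, as it was for Ighg3 (1.40%, 8.49% and 0.94%). Igha was at 13.9%, 10.99% and 0.132%, and Ighd at 327%, 152% and 36.4%. The summed level of 8 plasma cell markers in MBC libraries was 2.02%, 1.74% and 2.94% of the PC mean, and Jchain, which encodes the joining chain of polymeric IgM and IgA, was at 0.69%, 0.606% and 1.33%. Jchain made up most of the marker sum in PCs (mean 10253 of 13185 scaled TPM) but not in MBCs (mean 89.8 of 295). The other markers differed widely: Slamf7 was at 20.8% to 25.2%, Irf4 at 6.08% to 15.9%, Xbp1 at 4.23% to 6.87%, Mzb1 at 1.39% to 8.02%, Prdm1 at 9.66%, 0% and 1.83%, and Sdc1, the gene of CD138, at 0%, 0% and 0.0982%, while Tnfrsf17 was at 0 in all MBC libraries. A contribution of plasma cell RNA to the low constant gene levels of MBCs was not tested.

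Shares of the 8-gene TPM sum describe the isotype makeup of a library independently of its total antibody output. Ighm made up 49.7%, 49.2% and 39.0% of the sum in the MBC libraries and 69.9%, 25.3%, 52.3% and 52.7% in the PC libraries. MBCs averaged 46.0% ± 6.07 (SD, n = 3) while PCs averaged 50.1% ± 18.4 (SD, n = 4), and the PC libraries spread on both sides of the MBC libraries (exact permutation test, p = 0.686). The switched genes, meaning the 4 IgG genes with Ighe and Igha, summed to 48.1%, 49.97% and 60.5% in the MBC libraries and to 30.0%, 74.7%, 47.6% and 47.3% in the PC libraries (exact permutation test, p = 0.743). The sign of either difference turned when single libraries were left out, so no difference between MBCs and PCs in the share of switched transcripts was detectable with these libraries.

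**Figure D3:**
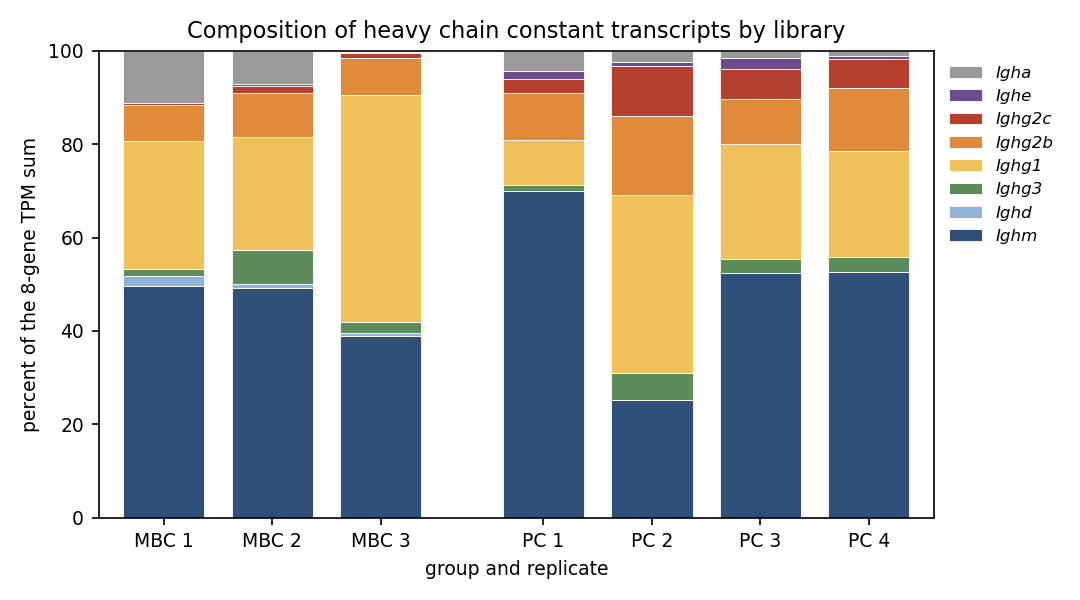
Percent of the 8-gene TPM sum held by each heavy chain constant gene, stacked, in each MBC and PC library. The dark blue Ighm part runs from 25.3% in PC replicate 2 to 69.9% in PC replicate 1, a wider range than among MBCs, and the red Ighg2c part is larger in every PC library than in any MBC library.

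How far any pair of libraries differed was measured as the percentage of transcripts that would have to be assigned to another gene to turn one composition into the other. The most alike pair was PC replicates 3 and 4, at 4.09 points, and the most unlike was PC replicates 1 and 2, at 47.4 points. The median was 23.2 points over the 3 pairs of MBC libraries, 24.4 over the 6 pairs of PC libraries and 24.6 over the 12 pairs of an MBC with a PC library. The MBC median rests on the library labelled MBC replicate 3. Without it, a comparison chosen after the data were seen, the only MBC pair differed by 9.08 points and the 8 remaining pairs between the groups had a median of 20.5. Pairs of MBC and PC libraries with the same code in their titles differed by 26.9, 10.6 and 26.4 points.

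Within this variable makeup, single genes held shares that did not overlap between the groups. Ighg2c held 0.379%, 1.53% and 0.991% of the 8-gene sum in the MBC libraries and 3.05%, 10.8%, 6.39% and 6.15% in the PC libraries. Ighg2b held 7.65% to 9.33% in MBCs and 9.74% to 16.8% in PCs, which barely separated the groups. Ighe held 0.0423%, 0.477% and 0.228% in the MBC libraries and 1.52%, 0.819%, 2.35% and 0.754% in the PC libraries. The shares of Ighg1 (24.2% to 48.6% in MBCs and 9.54% to 38.2% in PCs), of Ighg3 (1.504% to 7.32% and 1.39% to 5.62%) and of Igha (0.254% to 11.2% and 1.07% to 4.43%) overlapped. For Igha the overlap rests on the library labelled MBC replicate 3: MBC replicates 1 and 2, at 11.2% and 7.07%, lay above every PC library. Without that library the difference moved from -3.81 to -6.76 points for Igha and from -9.65 to -2.04 points for Ighg1.

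Ighd showed the sharpest fall in share, from 2.17%, 0.812% and 0.582% in the MBC libraries to 0.0271%, 0.0147%, 0.0276% and 0.0125% in the PC libraries. The TPM of Ighd itself overlapped between the groups, while the sum of the 8 genes was higher in every PC library. Set against Ighm alone, with which it shares a primary transcript, the picture was the same. The log2 ratio of Ighd to Ighm was -4.52, -5.92 and -6.06 in the MBC libraries and -11.3, -10.7, -10.9 and -12.0 in the PC libraries. Ighm TPM exceeded Ighd TPM by 22.9 to 66.9 times in MBCs and by 1718 to 4219 times in PCs. The difference was -5.75 log2 units (exact permutation test, p = 0.0286, the smallest that 35 assignments allow), and -6.03 without the library labelled MBC replicate 3. Naive follicular B cell markers, from cells known to carry IgD, were also higher in the MBC libraries (261 to 979 scaled TPM against 62.2 to 127), and their part in this ratio was not tested.

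Among the IgG genes alone, Ighg1 held a smaller part and Ighg2c a larger part in every PC library than in any MBC library. Ighg2c took 1.03%, 3.60% and 1.65% of the IgG sum in the MBC libraries and 12.7%, 15.1%, 14.6% and 13.5% in the PC libraries. The PC libraries were tightly grouped, at 14.0% ± 1.12 (SD, n = 4) against 2.09% ± 1.34 (SD, n = 3) in MBCs, a difference of 11.9 points (exact permutation test, p = 0.0286). The tight grouping held although the IgG share of all 8 genes ran from 24.1% to 71.5% in the same PC libraries. The difference was 11.7 points without the library labelled MBC replicate 3. It shrank to 6.54 points (exact permutation test, p = 0.0286) when TPM was multiplied by the number of bases in all annotated exons of each gene.

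Ighg1 took 74.2%, 57.2% and 81.1% of the IgG sum in the MBC libraries and 39.6%, 53.5%, 56.1% and 50.1% in the PC libraries. The groups touched but did not overlap, MBC replicate 2 lying only just above PC replicate 3, and the difference was -21.0 points (exact permutation test, p = 0.0286), or -15.8 without the library labelled MBC replicate 3. It became -18.1 points with p = 0.0571 (exact permutation test) when TPM was multiplied by exon length. That length joins the exons of the membrane and secreted forms, at 2592 bases for Ighg1 and 1326 for Ighg2c. The products are therefore not shares of reads. Ighg2b took 13.2% to 22.0% in MBCs and 22.3% to 42.0% in PCs, a difference of 10.7 points or 7.97 without the library labelled MBC replicate 3 (exact permutation test with all libraries, p = 0.114). These ranges did not overlap, but the difference did not pass, because the two-sided test also counts assignments with a mean difference as large in the other direction. Ighg3 took 4.07%, 17.3% and 4.05% in MBCs and 5.77% to 7.86% in PCs (exact permutation test, p = 0.914), its MBC mean resting on replicate 2. Without MBC replicate 2 its difference turned from -1.60 to 2.80 points.

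**Figure D4:**
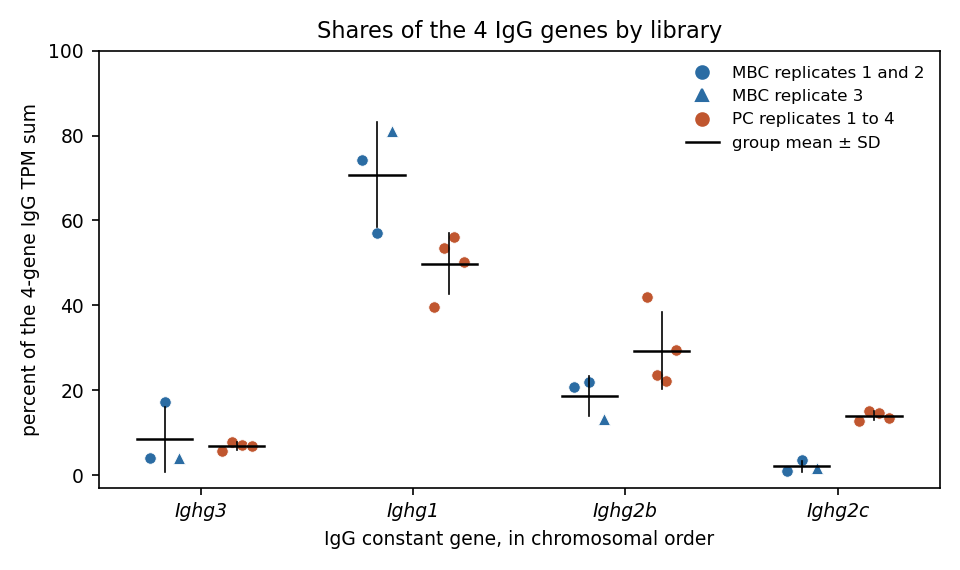
Percent of the 4-gene IgG TPM sum held by each IgG gene in each library, with MBC replicates in blue (replicate 3 as a triangle), PC replicates in orange and bars for the group mean ± SD. Ighg2c lies at 12.7% to 15.1% in PCs against 1.03% to 3.60% in MBCs, and Ighg1 is lower in PCs.

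The heavy constant genes were then set against their partners on the same antibody. The TPM of the 8 constant genes was 1.47, 1.87 and 1.29 times that of all Ighv variable genes in the MBC libraries and 0.829, 0.925, 0.782 and 0.841 times in the PC libraries. All PC libraries were below 1 and all MBC libraries above it. A heavy chain transcript carries a variable and a constant part in equal number. Germline transcripts of constant genes are counted as well, however, and TPM depends on the length assumed for each gene. A ratio of 1 is therefore not a reference point here, and the part of these effects was not tested. The difference in this ratio between PCs and MBCs was -0.86 log2 units (exact permutation test, p = 0.0286), and -0.98 without the library labelled MBC replicate 3. Against the light chain constant genes, Igkc and 4 Iglc genes, the 8 heavy chain genes stood at 0.598, 0.797 and 0.51 times in the MBC libraries and at 0.42, 0.523, 0.569 and 0.488 times in the PC libraries. Light chain constant TPM thus exceeded heavy chain constant TPM in all 7 libraries, and the groups overlapped (difference -0.33 log2 units, exact permutation test, p = 0.143, and -0.47 without the library labelled MBC replicate 3).

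**Figure D5:**
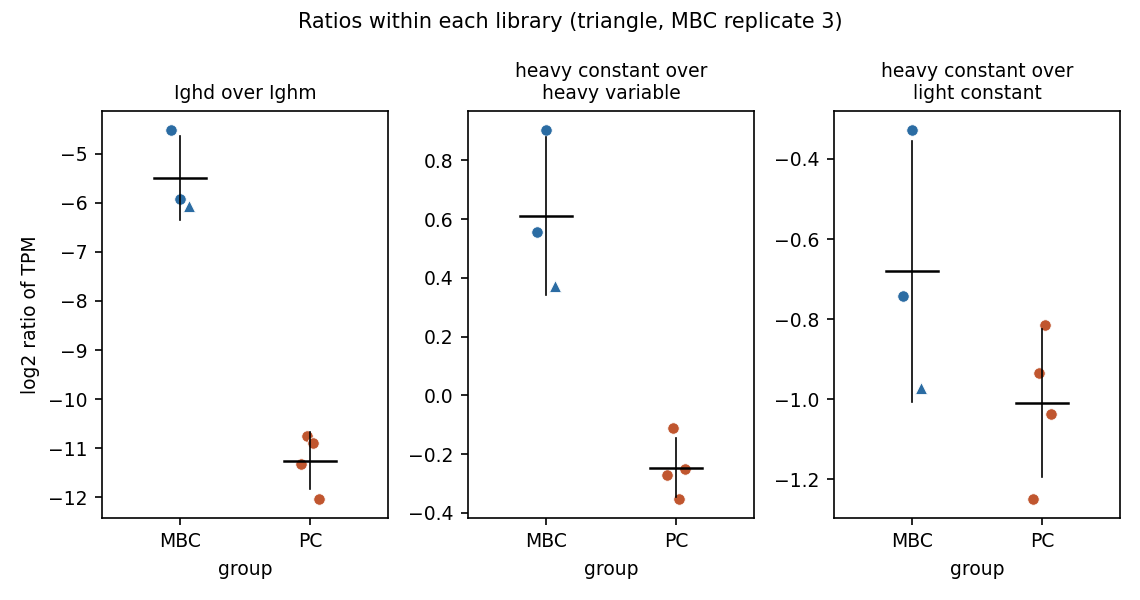
Log2 ratio of TPM within each library for Ighd over Ighm, for the 8 heavy constant genes over all heavy variable genes, and for the 8 heavy constant genes over the light constant genes, with the group mean ± SD and a separate axis range per panel. The first and second panels separate MBCs from PCs, by -5.75 and -0.86 log2 units, and the third does not.

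In all, 20 such within-library shares and ratios were tested. The 7 with p = 0.0286 (the Ighd share, Ighg1 and Ighg2c among IgG, heavy constant over variable genes, and the ratios of Ighd to Ighm, Ighg2c to Ighg1 and Ighe to Ighg1; exact permutation tests) each had a Benjamini-Hochberg adjusted p of 0.0816 over the 20, so none passed the adjustment. Over the 10 that had been set as the main comparisons, the 5 among them with this p had an adjusted p of 0.0571. With 3 and 4 libraries no single comparison can reach a smaller raw p.

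Genes that set which form of a heavy chain transcript is made, or that work with its protein, were read as a list of 13, of which 5 were called higher in PCs and 2 lower, beside 6.41% and 2.14% of all tested genes. Their median log2 fold change was -0.36, beside 0.14 over all tested genes. Ell2, an elongation factor that promotes use of the secretory polyadenylation site of heavy chain transcripts, rose from 18.2, 29.8 and 25.4 scaled TPM in the MBC libraries to 177, 251, 199 and 201 in the PC libraries (log2 fold change 3.05, SE 0.31, limma, adjusted p = 0.0003). Hnrnpll, an RNA-binding regulator of splicing in plasma cells, was at 0, 0 and 0.273 scaled TPM in MBCs and at 2.62 to 6.23 in PCs (2.22 on the log2 scale, limma, adjusted p = 0.0155). Jchain rose from 62.2 to 137 scaled TPM in MBCs to 7626 to 13200 in PCs (6.88, limma, adjusted p = 1.2e-05). Mzb1, a chaperone of antibody assembly, rose by 5.17 (limma, adjusted p = 0.00059), and Pou2af1, a coactivator of immunoglobulin transcription, by 1.16 (limma, adjusted p = 0.0394).

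On the lower side of the same list were Fcer2a, which encodes the low-affinity IgE receptor CD23, and Pou2f2, which encodes the octamer-binding factor Oct-2. Fcer2a stood at 292, 343 and 104 scaled TPM across MBCs and at 7.95 to 15.7 in PCs (-4.17 on the log2 scale, limma, adjusted p = 0.00048). Pou2f2 fell by 1.65 (limma, adjusted p = 0.0413). Zfp318, which is needed for the long transcript that yields Ighd messages, was at 50.6, 82.8 and 2.43 scaled TPM across MBCs and at 17.6, 2.02, 3.63 and 1.10 in the PC libraries. It differed by -2.34 on the log2 scale (limma, adjusted p = 0.238) with all libraries and -3.76 (limma, adjusted p = 0.019) without the library labelled MBC replicate 3, in which Ighd was also the lowest of the MBC libraries. Fcmr, the receptor for IgM, was at -1.23 (limma, adjusted p = 0.116) and was called lower, at -1.75 (limma, adjusted p = 0.0061), without that library. The receptor chains Cd79a (-0.36) and Cd79b (-1.05), the inhibitory IgG receptor Fcgr2b (-0.53) and the cleavage factor Cstf2 (-0.22) were not called in either fit.

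The genes of switch recombination were read as a pair of lists. Of 12 genes that cut or process DNA in switch regions, 0 were called in either direction with all libraries (limma), and of 21 tested genes that repair the breaks, also 0. Over all tested genes, 6.41% were called higher and 2.14% lower. At an unadjusted p under 0.05 the counts were 0 higher and 1 lower in the first list and 1 higher and 2 lower in the second (1770 and 1033 of all genes). Without the library labelled MBC replicate 3 the first list had 0 higher and 1 lower and the second 2 higher and 3 lower. In that fit 13.8% of all genes were called higher and 7.94% lower. The median log2 fold changes were 0.08 and -0.05 with all libraries and 0.52 and 0.11 without it.

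Of 18 tested genes for the signals that direct the choice of isotype, 0 were called higher in PCs and 5 lower, beside 2.14% of all genes called lower. At an unadjusted p under 0.05 (limma) the counts were 0 and 7, beside 1770 and 1033 of all 11573 tested genes. The median log2 fold change of the list was -0.88. Il4ra, the interleukin-4 receptor chain that directs switching to IgG1 and IgE, fell from 94.0, 49.9 and 42.1 scaled TPM in the MBC libraries to 5.33, 5.77, 3.70 and 8.06 in the PC libraries (-3.18 on the log2 scale, limma, adjusted p = 0.0019). Cd40, the receptor for T cell help, fell from 16.1 to 24.3 scaled TPM to 1.181 to 4.39 (-2.47, limma, adjusted p = 0.0152). Ifngr1, a chain of the interferon gamma receptor that directs switching to IgG2c, fell from 26.9 to 64.7 scaled TPM to 4.12 to 12.1 (-2.43, limma, adjusted p = 0.0152). These 3 were named because they had the largest fold changes among the called genes of the list. Their values did not overlap between the groups, and 8.68% of all genes also lay wholly lower in PCs. Without the library labelled MBC replicate 3 the list had 8 genes called lower, beside 7.94% of all genes.

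For each of the 8 genes, the non-immunoglobulin genes with the most similar pattern were found by Pearson's r of log2(scaled TPM + 1) over the 7 libraries, which share the contrast between the groups. Ighg2b was closest to Hspa13 (r = 0.998) and to Xbp1 (0.995), a transcription factor of secretory cells. Ighg2c was closest to Tmed10 (0.996) and Lman1 (0.995), both of which serve in traffic from the endoplasmic reticulum, and Ighg3 to Tmed10 (0.988) and Serinc3 (0.987). Ighm was closest to Atp6v0a1 (0.990) and Gpr155 (0.989), and Ighg1 to Epcam (0.994) and Mgst1 (0.994). Ighe was closest to Gm43775 (0.995) and Capn5 (0.993). Igha and Ighd, which were not called with all libraries, had other companions: Gpr55 (0.989) and H2-Q7 (0.986) for Igha, and Nlrc5 (0.986) and AW549877 (0.984) for Ighd.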

How the data were processed

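Per the labels, total RNA from sorted splenic cells was made into cDNA libraries (Nugen kit) for Illumina HiSeq sequencing. The authors deposited TPM (reads divided by gene length, scaled to a fixed library total) for 48795 genes, rounded to 2 decimals. The submitters' processing notes name RSEM 1.3.0, STAR 2.5.2a, DESeq2 1.18.1 and GRCm38; the annotation release is not given in the sources used here. Symbols, exons and transcript sequences were taken from GENCODE M21, which matched 48349 genes.

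TPM was divided by each library's median ratio to the geometric mean over 9305 genes above 0 in all libraries (scaled TPM). Genes reaching 1 TPM in at least 3 libraries (11573) were fitted on log2(scaled TPM + 1), a scale that understates the change of low genes, with limma 3.58.1 (trend; R 4.3.3; Benjamini-Hochberg adjustment). In simulated data for this comparison (11344 genes), 72% of changes of 4 and 25% of changes of 2 on the log2 scale were recovered, with 7 false calls. Shares and ratios used deposited TPM and two-sided exact permutation tests over 35 assignments (Python 3.11.15, scipy 1.17.1).

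TPM holds no read totals; the steps between low values gave an estimated 6.28 to 17.5 reads per TPM and kb, and 74.4% to 84.7% of low values lay within 0.15 of a whole read, where 30% would by coincidence. Estimated reads use the shortest transcript of a gene and cover counting error only. Members, lists and the naming rule (all 8 members; all measured partners; up to 3 called genes per direction of other lists; the 2 most similar genes) were chosen with earlier results of these data known. Alternatives changed the scaling, pseudocount, filter, moderation, share definition and libraries.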

Additional observations from a re-analysis of the deposited data

How the results depend on the processing

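The number of the 8 genes called higher in PCs was 5 to 7 under every alternative run for it, and Ighg3, Ighg1, Ighg2b, Ighg2c and Ighe were called under all of them. Ighm was not called when all genes above 0 in any library were tested (adjusted p = 0.0596, limma), a fit with 21326 genes, and Igha was called without MBC replicate 1 or 3, within the more frequent title prefix and under both replicate blocks. Over all genes, 742 were called higher and 248 lower; TPM as deposited gave 472 and 3018 and moved the median log2 fold change of all genes from 0.14 to -0.91, removal of immunoglobulin genes from the total gave 595 and 449, quantile normalization 675 and 460, all genes above 0 gave 437 and 123, the more frequent prefix 873 and 417, and leaving out single libraries 451 to 1592 higher and 91 to 919 lower. Relative to that shift, Ighm, at 4.04 with TPM as deposited, and Ighd, at -1.66, kept their directions.

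With 1 library left out, no exact test of a share or ratio can reach 0.05 (smallest p 0.0667 or 0.1), so these values are given without a verdict. The difference ran from -1.47 to -0.677 points for the Ighd share, from -27.8 to -15.8 for Ighg1 and from 11.4 to 12.6 for Ighg2c among IgG, from -6.03 to -5.26 log2 units for Ighd to Ighm and from -0.976 to -0.71 for heavy constant to variable genes. Directions turned within the range for the Ighm share (-2.50 to 12.4 points, negative without PC replicate 1), the switched share (-11.2 to 3.67, positive without MBC replicate 3 or PC replicate 1), Ighg3 among IgG (-3.81 to 2.80, positive without MBC replicate 2) and the log2 fold change of Ighd (-1.22 to 0.30, positive without MBC replicate 1). Within the more frequent prefix the values were -0.26 points for the Ighm share, 1.73 for the switched share, -1.47 for the Ighd share, -15.9 for Ighg1 and 11.8 for Ighg2c among IgG, -5.77 for Ighd to Ighm and -0.975 for heavy constant to variable genes. Ighg3 among IgG was at 0.016 on the logit scale. With TPM times exon length, Ighg1 among IgG was at -18.1 points and Ighg2c at 6.54, against 11.9 for Ighg2c in the main test. The cause of these turns was not tested.

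Whether the description numbers or title codes pair the libraries is not given by the labels, and the values did not settle it, so the fits without a block were kept as the main ones. Deviations from the group means correlated at 0.109, -0.0398 and -0.0832 for the 3 same-numbered pairs and at 0.109, -0.00436 and 0.222 for the 3 same-code pairs. Under the replicate block by number and by title code, 390 and 434 of all genes were called higher and 60 and 83 lower, with 7 of the 8 genes higher in both. The paired differences by number and by code were -1.17 and -1.17 points for the Ighd share, -21.1 and -22.2 for Ighg1 and 12 and 11.5 for Ighg2c among IgG, -5.49 and -5.92 log2 units for Ighd to Ighm and -0.856 and -0.902 for heavy constant to variable genes. Depth limits Ighe in MBC replicate 1 most, at an estimated 21.9 reads.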
